A study of Homo sapiens with 4 samples.

Results

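The E2F transcription factors E2F1 to E2F8, their dimerisation partner TFDP1 and the cell cycle factor MYBL2 were followed in RNA of HEK293T culture supernatant. They were taken by gene symbol alone, as 10 of the 61543 genes in the count table, and all 10 had a row and passed the filter on low counts. The study mapped RNA bound by Cas13d, an RNA-targeting CRISPR nuclease, with POND-seq, in which a protein fused to EPN24 is secreted inside nanocages that carry its bound RNA. It compared 2 libraries of EPN24-Cas13d with 2 control libraries of EPN24 with no Cas13d in the label. All 4 came from HEK293T cells in the same medium with serum, and the labels name no guide RNA and no other treatment. The libraries held total RNA of cleared and filtered supernatant, so RNA inside cages and RNA outside them were counted together. The labels do not say whether a group's libraries came from separate cultures, so p-values speak only of the variation among the 4 libraries, which may be technical. HEK293T is an embryonic kidney line that carries adenoviral early proteins and simian virus large T antigen, which bind the retinoblastoma family of E2F inhibitors.

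E2F proteins bind promoters of genes for DNA replication and cell division, mostly as dimers with a DP protein such as TFDP1. The retinoblastoma protein and its relatives hold them inactive until cyclin-dependent kinases release them late in G1 phase, after which the activating E2Fs drive entry into S phase and the repressing and atypical members later limit it. MYBL2 is itself an E2F target, and with the MuvB complex it switches on genes of G2 phase and mitosis.

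Gene counts summed to 5097332 and 4863449 in the EPN24-Cas13d libraries, against 1830860 and 1903492 in the EPN24 libraries. Spike-in ERCC transcripts, synthetic RNAs added per volume of supernatant, made up 1.73% and 1.66% of counts in EPN24-Cas13d, against 19.6% and 20.9% in EPN24. A count of 3 was worth 0.721 and 0.755 CPM (counts scaled to library size, with TMM scaling between libraries) in EPN24-Cas13d and 1.34 and 1.42 CPM in EPN24, and this counting floor does not cover PCR copies. All 8 markers fixed for HEK293 cells were detected, and their summed level was 277 and 246 CPM in EPN24-Cas13d and 208 and 192 CPM in EPN24. Summed markers of blood, liver and fibroblasts reached 2.88 to 27.9 CPM in EPN24-Cas13d and 22.5 to 67.3 CPM in EPN24. HBA1, a haemoglobin gene, had no count in any library, and the fibrinogen gene FGB had none in EPN24-Cas13d. Other markers of these tissues did have counts in EPN24-Cas13d. The fibroblast marker COL1A1 had 76 and 102, against 72 and 73 in EPN24, which is 18.3 and 25.7 CPM against 32.1 and 34.6 CPM. The liver marker ALB had 6 and 10, against 10 and 6, and the blood marker PTPRC had 8 and 2, against 17 and 17. Of these blood, liver and fibroblast lists, 3 of 8, 4 of 8 and 5 of 6 genes passed the filter. In the test described below 3, 3 and 5 of them were called lower with TMM scaling and 0 higher. Over all tested genes 48.2% were called lower. With ERCC scaling 0, 1 and 1 were called higher and 0 lower. Their part in the members' values was not tested.

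The E2F members share a short stretch of their DNA-binding domain that contacts DNA, and its coding sequence shows how differently these related mRNAs are spelled. The 42 bases below are 14 codons that begin at the first arginine of this stretch, 5′ to 3′ on the coding strand, from GENCODE v29 transcripts on GRCh38. Capitals mark G or C at the wobble position, the last of each codon, where a change often leaves the protein the same.
E2F1: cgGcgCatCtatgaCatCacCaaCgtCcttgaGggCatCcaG
E2F2: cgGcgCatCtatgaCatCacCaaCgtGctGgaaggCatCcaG
E2F3: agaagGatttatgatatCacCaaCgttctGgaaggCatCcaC
E2F4: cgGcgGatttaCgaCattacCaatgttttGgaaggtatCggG
E2F7: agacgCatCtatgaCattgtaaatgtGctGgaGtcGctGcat
E2F8: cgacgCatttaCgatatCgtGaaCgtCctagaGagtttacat
TFDP1: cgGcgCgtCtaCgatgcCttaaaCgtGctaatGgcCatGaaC

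Each stretch lay within a single coding exon. They stood at chr20:33679793-33679834 (minus strand) for E2F1, chr1:23521875-23521916 (minus) for E2F2, chr6:20481346-20481387 (plus) for E2F3 and chr16:67192791-67192832 (plus) for E2F4. Those of the other genes were chr12:77046276-77046317 (minus) for E2F7, chr11:19235006-19235047 (minus) for E2F8 and chr13:113633914-113633955 (plus) for TFDP1. E2F1 and E2F2 differed at 3 of the 42 bases and encoded the same residues, with 12 of 14 wobble positions G or C in each. The first of the paired DNA-binding domains of E2F7 and E2F8, at codons 184 and 155, also encoded the same residues but differed at 14 bases, and 11 of the 14 codons were synonymous alternatives. Over whole coding sequences, G or C stood at 79.6% of wobble positions in E2F1, 78.9% in E2F2, 74.7% in MYBL2, 67.1% in TFDP1, 64.9% in E2F4 and 57.8% in E2F3. It stood at 47.8% in E2F8, 47.4% in E2F5, 44.0% in E2F7 and 43.1% in E2F6.

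Relative to the other genes of their libraries, and with no overlap between groups, 6 of the 10 members were higher in EPN24-Cas13d than in EPN24, 1 was lower and 3 were not called and overlapped. E2F1, E2F2, E2F4 and MYBL2 were 14 to 27 times as high, E2F7 and TFDP1 rose less, E2F8 fell, and E2F3, E2F5 and E2F6 lay within the spread of the libraries. With ERCC scaling E2F8 was not called, and E2F3, E2F5 and E2F6 were called higher, as they also were with the GC trend removed. The test was edgeR's quasi-likelihood test over 20476 genes with Benjamini-Hochberg adjustment at 0.05, and over all of these genes 32.6% were called higher, 48.2% lower and 80.9% in either direction. Among protein-coding genes the shares were 37% higher and 42.9% lower, and 36.8% of all tested genes lay above without overlap and 54.3% below. Members had a median log2 fold change of 1.32, against -0.96 for every gene tested and -0.40 for protein-coding genes. This gap depended on the filter and the background. The medians were 0.88 against 0.015 with genes kept at 10 counts and 10 CPM (9 members tested). They were 0.59 against -0.12 with a background density subtracted. In bulk supernatant such a relative level cannot tell more or fewer cells of a kind from more or less RNA released per cell. Nor can it tell RNA inside cages from RNA outside them.

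**Figure D1:**
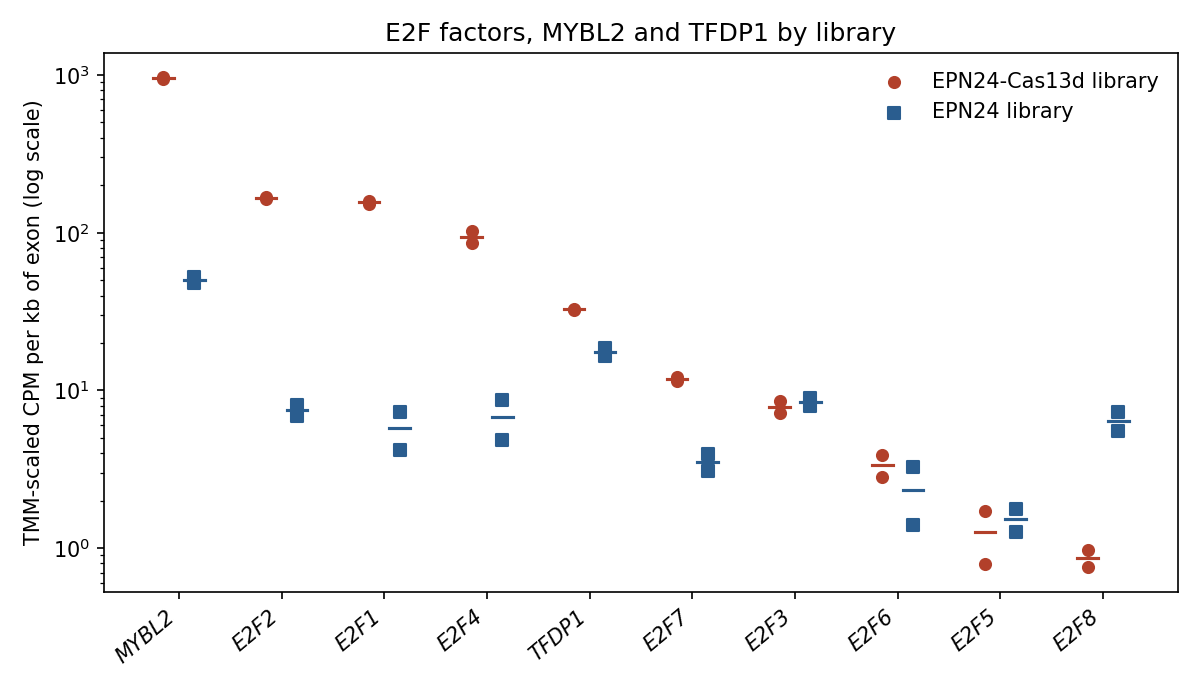
Level of each member in every library, as TMM-scaled CPM per kilobase of exon on a log axis, with EPN24-Cas13d libraries left of EPN24 libraries. E2F1, E2F2, E2F4, E2F7, MYBL2 and TFDP1 lie above their EPN24 levels in both EPN24-Cas13d libraries, E2F8 lies below in both on this scale, and E2F3, E2F5 and E2F6 overlap.

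The activating E2Fs did not move together. E2F1 (ENSG00000101412.13, chr20:33675477-33686385, minus strand, GRCh38), the founding activator of S-phase entry, had 411 and 427 CPM in EPN24-Cas13d libraries, against 19.6 and 11.4 CPM in EPN24 libraries. Its log2 fold change was 4.74 ± 0.19 (SE, n = 2 each, edgeR adjusted p = 1.80e-11), which placed it 253rd from the top of the 20476 tested genes. Both EPN24-Cas13d libraries stood far above both EPN24 libraries, whose values rest on 44 and 24 counts.

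E2F2 (ENSG00000007968.7, chr1:23506438-23531233, minus strand), an activator best known from haematopoietic cells, had 923 and 888 CPM in EPN24-Cas13d, against 44.2 and 37.9 CPM in EPN24. The groups did not overlap, and the log2 fold change was 4.46 ± 0.13 (adjusted p = 2.08e-12). E2F3 (ENSG00000112242.16, chr6:20401879-20493714, plus strand), the third activator and a driver of proliferation in many tissues, had 44.2 and 37.5 CPM in EPN24-Cas13d, against 46.8 and 41.2 CPM in EPN24. The ranges overlapped, and its log2 fold change of -0.11 ± 0.21 was not called (adjusted p = 0.647). On this scale E2F1 and E2F2 separated the groups and E2F3 did not, while E2F3 was called higher with ERCC scaling (3.25) and with the GC trend removed (1.41).

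Among the repressing members, E2F4 stood apart on this scale, and the difference between them was not tested. With the GC trend removed, E2F4, E2F5 and E2F6 had log2 fold changes of 2.89, 2.66 and 2.17 and all were called higher. E2F4 (ENSG00000205250.9, chr16:67192155-67198918, plus strand), which with the pocket proteins p107 and p130 silences cell cycle genes in resting cells, had 311 and 368 CPM in EPN24-Cas13d and 17.4 and 31.2 CPM in EPN24. Its log2 fold change was 3.81 ± 0.20 (adjusted p = 3.93e-10), without overlap between groups. E2F5 (ENSG00000133740.11, chr8:85177154-85217158, plus strand), its closest relative, had 10.3 and 4.78 CPM in EPN24-Cas13d, against 10.7 and 7.57 CPM in EPN24. The value of -0.27 ± 0.50 for E2F5 was not called (adjusted p = 0.621), and its counts of 43 and 19 in EPN24-Cas13d, against 24 and 16 in EPN24 leave a wide error.

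E2F5 is also uncertain for its neighbours, since 997 bp of its exons overlap RBIS on the opposite strand, and the strand setting of the counting is not given in the sources used here. RBIS had 1 and 5 counts in EPN24-Cas13d, against 22 and 14 in EPN24. E2F6 (ENSG00000169016.17, chr2:11444375-11466177, minus strand), which represses without pocket proteins through Polycomb complexes, had 15.9 and 11.6 CPM in EPN24-Cas13d and 13.4 and 5.68 CPM in EPN24. It was not called at 0.52 ± 0.43 (adjusted p = 0.279), but without EPN24 replicate 1 it was called higher at 1.13 (edgeR adjusted p = 0.0408) and without EPN24 replicate 2 it was -0.036.

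The 2 atypical members, which bind DNA without a DP partner and repress E2F1 and its targets in S and G2 phase, went opposite ways on this scale, though not with ERCC scaling, where both values were above 0. E2F7 (ENSG00000165891.16, chr12:77021248-77065569, minus strand) had 76.7 and 72.5 CPM in EPN24-Cas13d and 24.98 and 19.4 CPM in EPN24. Its log2 fold change was 1.74 ± 0.22 (adjusted p = 5.99e-06), and the groups did not overlap. E2F8 (ENSG00000129173.13, chr11:19224063-19241620, minus strand) had 3.12 and 4.03 CPM in EPN24-Cas13d and 30.3 and 22.7 CPM in EPN24.

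The log2 fold change of E2F8 was -2.88 ± 0.39 (adjusted p = 1.39e-05), and it was 0.45 when libraries were scaled by ERCC totals (adjusted p = 0.432). Only 13 and 16 counts stood behind the EPN24-Cas13d values of E2F8. E2F8 shares 7 bp of exon with the antisense gene CSRP3-AS1, which had 1 and 0 counts in EPN24-Cas13d, against 0.5 and 4.5 in EPN24. The difference between the fold changes of E2F7 and E2F8 was not tested.

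TFDP1 (ENSG00000198176.13, chr13:113584721-113641473, plus strand), the DP partner of most E2Fs, had 123 and 122 CPM in EPN24-Cas13d and 61.6 and 70.1 CPM in EPN24. Its log2 fold change was 0.90 ± 0.16 (adjusted p = 0.000148), with no overlap. This call depends on the scaling and the filter: with libraries scaled by total gene counts the value was 0.33 (adjusted p = 0.0635), and with genes kept at 10 counts and 10 CPM it was 0.036 (adjusted p = 0.826).

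MYBL2 (ENSG00000101057.16, chr20:43667019-43716495, plus strand) had the highest level per length of all members in every library. It had 2677 and 2638 CPM in EPN24-Cas13d and 145 and 134 CPM in EPN24, from 11138 and 10481 counts and from 325 and 283 counts. Its log2 fold change was 4.25 ± 0.11 (adjusted p = 1.27e-12). Its EPN24-Cas13d libraries lay close together and far above both EPN24 libraries.

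Pseudogenes and other genes named after members (10 in all) had at most 12 counts in any library, reached by E2F6P4 in EPN24 replicate 1. In that library E2F6P4 and E2F6P1 had 12 and 6 counts beside 30 for E2F6, so its EPN24 level is uncertain. How the counting treated reads that map to several places is not given in the sources used here.

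Per kilobase of exon, the order of the members changed between groups. In EPN24-Cas13d, MYBL2 led with 957 CPM per kilobase, followed by E2F2 at 166, E2F1 at 156, E2F4 at 94.5, TFDP1 at 32.7, E2F7 at 11.9, E2F3 at 7.87, E2F6 at 3.37, E2F5 at 1.26 and E2F8 at 0.865. Of these neighbours only E2F5 and E2F8 had overlapping ranges. In EPN24, MYBL2 led with 50.2 CPM per kilobase and TFDP1 came next at 17.6, then E2F3 at 8.48, E2F2 at 7.51, E2F4 at 6.76, E2F8 at 6.42 and E2F1 at 5.76.

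From E2F3 to E2F1 each EPN24 neighbour overlapped the next, so their order there is not fixed by these libraries. E2F7 at 3.53, E2F6 at 2.34 and E2F5 at 1.52 CPM per kilobase closed the EPN24 list, again with overlapping neighbours. The level of MYBL2 per length was 760 times that of E2F5 in EPN24-Cas13d and 33.0 times in EPN24.

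Several members stood near a rough background in EPN24. Olfactory receptor genes, most of them silent outside sensory tissue though some are active in kidney, gave 0.175 and 0.140 counts per kilobase in EPN24-Cas13d, against 1.83 and 1.42 in EPN24 (370 genes). In EPN24 libraries, E2F5 was 2.18 and 1.88 times as dense as these genes, E2F6 4.02 and 2.07 times, E2F7 4.85 and 4.58 times, E2F4 5.91 and 12.9 times, E2F1 8.92 and 6.27 times and E2F8 8.90 and 8.08 times. E2F2 was 9.88 and 10.3 times as dense, E2F3 11.0 and 11.8 times, TFDP1 20.1 and 27.8 times and MYBL2 63.8 and 71.7 times. With this background subtracted, the log2 fold changes called higher were 3.99 for E2F1, 3.66 for E2F2, 3.04 for E2F4, 1.13 for E2F7 and 3.32 for MYBL2. E2F8 was still called lower at -3.75, while E2F3 was called lower (-0.94, edgeR adjusted p = 0.00820) and TFDP1 was not called (9e-04, adjusted p = 0.996).

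Measured against the spike-in, 9 of the 10 members lay higher per volume of supernatant without overlap, and E2F8 overlapped. MYBL2 had 1243 and 1277 counts per 10000 ERCC counts in EPN24-Cas13d, against 7.30 and 5.63 in EPN24, a ratio of 195. E2F1 had 191 and 207 against 0.989 and 0.477, a ratio of 271, and E2F2 had 428 and 430 against 2.22 and 1.59, a ratio of 225. These were the members with the greatest ratios, and for each the EPN24-Cas13d libraries lay more than 100 times above both EPN24 libraries.

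The ratio was 148 for E2F4, 34.1 for E2F7, 19.2 for TFDP1, 14.2 for E2F6, 9.46 for E2F3 and 8.30 for E2F5. E2F8 had 1.45 and 1.95 counts per 10000 ERCC counts in EPN24-Cas13d, against 1.52 and 0.945 in EPN24, and its groups overlapped. Over all tested genes, 65.9% lay above without overlap on this scale. An exact two-sided permutation test over 2 against 2 libraries cannot go below p = 0.333, which the 9 separated members reached, and E2F8 had p = 0.667.

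With libraries scaled by ERCC totals in edgeR, every gene's value moved up, by 3.34 on the log2 scale at the median. On that scale the same 9 members were called higher, against 58.4% of all genes, and none lower, against 2.33%. E2F3, E2F5 and E2F6 had log2 fold changes of 3.25, 3.06 and 3.84, close to the shift itself. The authors' deposited table gave log2 fold changes within 0.055 of this ERCC-scaled fit for each member, with 9 below an adjusted p of 0.05 in the authors' deposited table and E2F8 at 0.40 (adjusted p = 0.862).

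**Figure D2:**
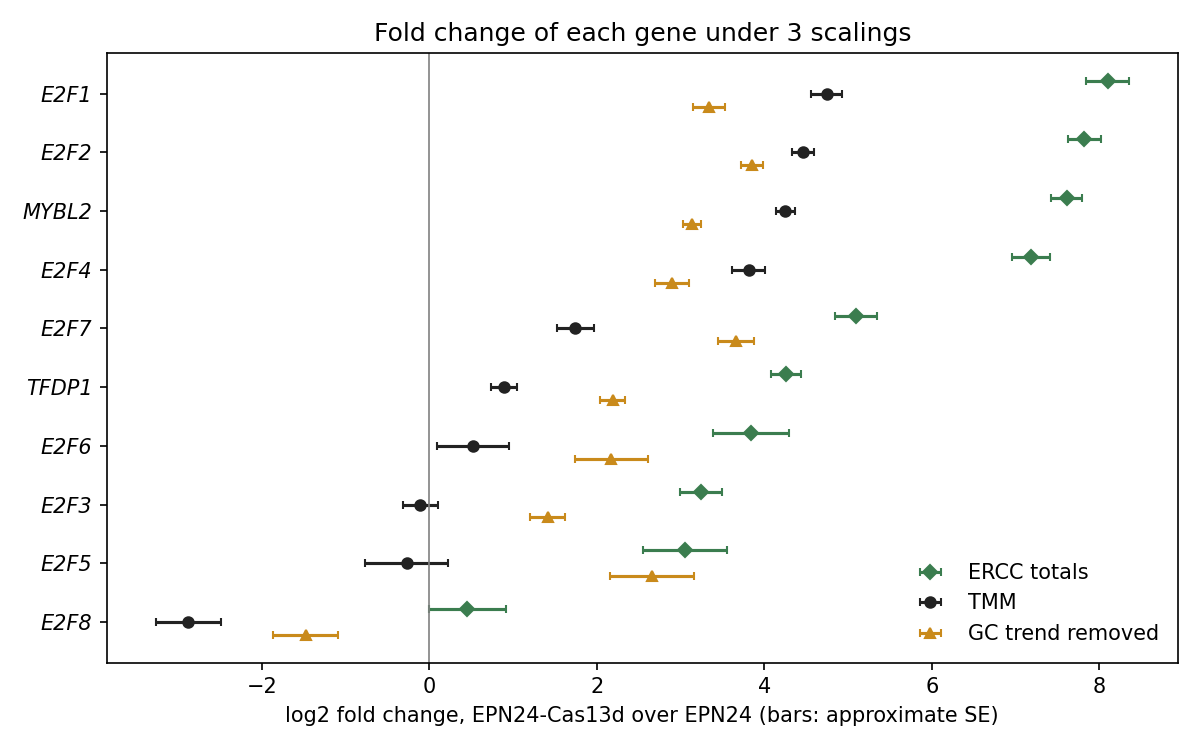
log2 fold change of each member, EPN24-Cas13d over EPN24, ± SE under TMM scaling, ERCC scaling and TMM scaling with the GC trend removed. E2F1, E2F2, E2F4, E2F6, E2F7, MYBL2 and TFDP1 are above 0 under all 3, though E2F6 is not called under TMM scaling. E2F8 is near 0 only with ERCC scaling, and E2F3 and E2F5 change sign between scalings.

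Base composition set the 4 most raised members apart but did not order the others. The longest GENCODE v29 transcript held 62.5% G or C for E2F1, 60.5% for MYBL2, 59.3% for E2F4 and 57.5% for E2F2, the 4 members with the greatest log2 fold changes. It held 46.6% for TFDP1, 45.9% for E2F8, 45.2% for E2F3, 44.4% for E2F6, 43.1% for E2F7 and 38.3% for E2F5. In that order their log2 fold changes were 0.90, -2.88, -0.11, 0.52, 1.74 and -0.27. In the coding stretches shown above, 12 of 14 wobble positions were G or C in E2F1 and E2F2, 11 in TFDP1, 8 in E2F3, E2F4 and E2F7 and 7 in E2F8, so the stretches of TFDP1 and E2F4 did not follow their log2 fold changes.

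A rise of the log2 fold change with G or C content ran through all tested protein-coding genes. Their median log2 fold change was -2.90 below 40% G or C (2160 genes), -1.67 from 40% to 45% (3141), -0.22 from 45% to 50% (2623), 1.30 from 55% to 60% (2549) and 2.03 at 60% or more (2443). In the highest of these bins 65.2% of genes were called higher, and in the lowest 2.36%. E2F1, E2F2, E2F4 and MYBL2 were above their bin medians, and so were E2F3, E2F5, E2F6, E2F7 and TFDP1, while E2F8 was below.

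With the GC trend over all genes removed, 9 members were called higher and E2F8 lower, against 38.9% and 27.8% of all genes. The log2 fold changes were then 3.34 for E2F1, 3.85 for E2F2, 2.89 for E2F4 and 3.14 for MYBL2. They were 3.66 for E2F7, 2.66 for E2F5, 2.19 for TFDP1, 2.17 for E2F6, 1.41 for E2F3 and -1.48 for E2F8. On this scale E2F7 stood among the highest members and E2F5 was called higher. What G or C content stands for in these libraries was not tested.

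**Figure D3:**
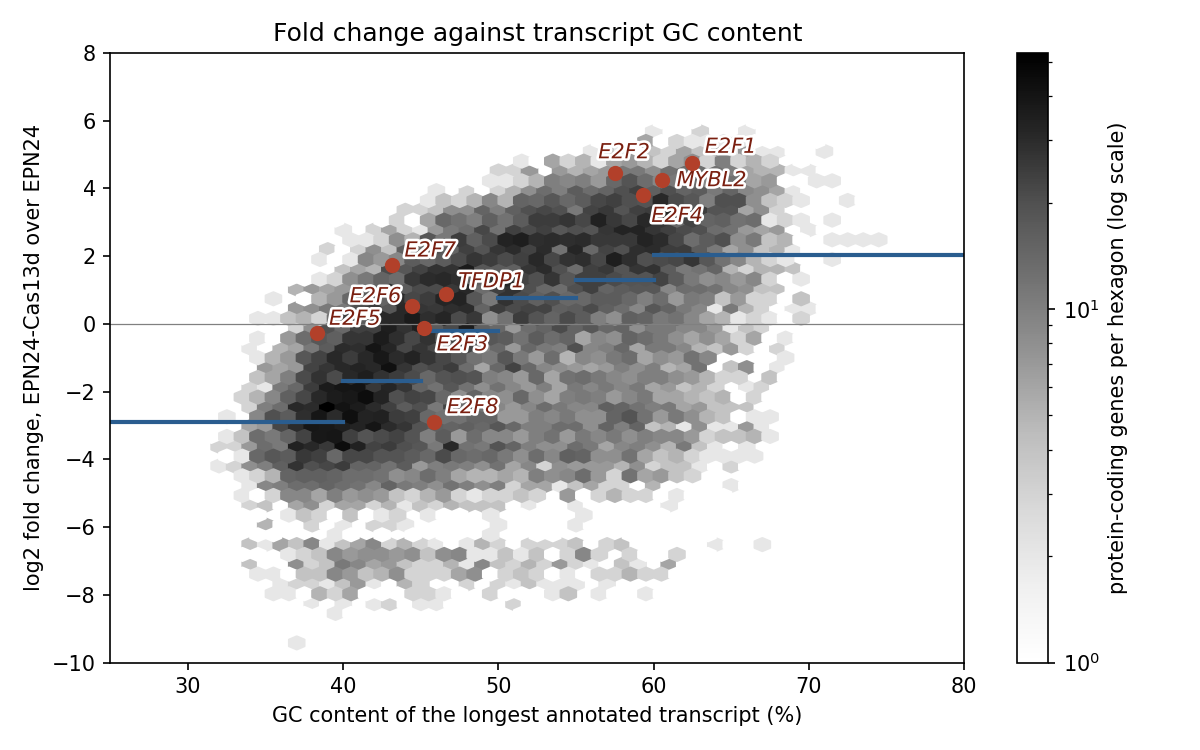
log2 fold change (EPN24-Cas13d over EPN24, TMM scaling) against G or C content in percent of the longest transcript, for tested protein-coding genes (shading), with bin medians in blue and the members labelled. E2F8 is the member below its bin median of -0.22, and the 4 highest members have 57.5% to 62.5% G or C.

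Promoters of the members were read from RefSeq windows of 250 bases before to 50 after the start (GRCh38.p14), which hold 8 of the 10 genes in 9 windows and lack E2F5 and E2F8. The words TTTCCCGC, TTTCGCGC, TTTGCCGC and TTTGGCGC, spellings of the classical E2F site, were searched on both strands. A match was present in 4 of 9 member windows, those of E2F1, E2F2, TFDP1 and the first of E2F3, and in 3.31% of all 35116 windows, and no 2 matches within a member window overlapped. The 60 bases before the start of the 2 most raised E2Fs are shown with matches in capitals, E2F1 at chr20:33686386-33686445 and E2F2 at chr1:23531234-23531293, both on the minus strand. No match was present in the windows of MYBL2, E2F4, E2F6 and E2F7, or in the second window of E2F3. A match is a run of letters and not a measured binding site.
E2F1: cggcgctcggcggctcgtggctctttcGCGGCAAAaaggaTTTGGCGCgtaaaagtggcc
E2F2: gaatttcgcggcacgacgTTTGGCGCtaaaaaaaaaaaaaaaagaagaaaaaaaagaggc

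Messages of genes that E2Fs switch on at the G1 to S transition were mostly higher. Of 30 such genes, 24 were called higher, 5 lower and 1 not at all, against 32.6% higher and 48.2% lower of all genes. Their median log2 fold change was 1.88. With ERCC scaling 28 were higher and 1 lower, against 58.4% and 2.33% of all genes. With the GC trend removed the counts were 26 and 1, against 38.9% and 27.8%. With total gene counts they were 21 and 5, against 5559 and 11161 of 20476 genes tested. With background subtracted they were 18 and 4 (median 0.99), against 5320 and 5775 of 15698. Under the filter at 10 counts and 10 CPM they were 17 and 6 (median 1.02), against 4780 and 4889 of 11735. MCM7, a subunit of the replicative helicase, averaged 1827 ± 55.9 CPM in EPN24-Cas13d and 126 ± 4.34 CPM in EPN24 (SD, n = 2 each), a log2 fold change of 3.86. CDT1, which loads that helicase, averaged 1446 ± 94.3 CPM and 102 ± 2.33 CPM, a log2 fold change of 3.83.

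The lower G1/S genes included PCNA (-4.48), CCNE2 (-2.67), SLBP (-0.69) and POLA1 (-0.47), named after their values were seen. With ERCC scaling CCNE2, SLBP and POLA1 were above 0, at 0.64, 2.68 and 2.89. With the GC trend removed they were 0.51, -0.18 and 1.49. PCNA, the sliding clamp of DNA polymerase, had 5.77 and 3.02 CPM in EPN24-Cas13d and 84.7 and 115 CPM in EPN24. It was also below 0 with ERCC scaling (-1.12) and with the GC trend removed (-2.97), so it went the other way from MCM7 on each scale. Without either EPN24-Cas13d library the count of lower G1/S genes was 2, with the calls of SLBP and POLA1 among those lost.

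Genes of G2 phase and mitosis that MYBL2 and FOXM1 switch on were divided. Of 26, 8 were called higher and 16 lower, against 32.6% and 48.2% of all genes, with a median of -1.47. With ERCC scaling 17 were higher, against 58.4% of all genes. With the GC trend removed 10 were higher and 4 lower, against 38.9% and 27.8% of all genes. With background subtracted 5 were higher and 18 lower, against 5320 and 5775 of the 15698 genes then tested. The median G or C content was 43.2% in this list and 49.4% in the G1/S list. PLK1, a mitotic kinase, averaged 628 ± 36.4 CPM in EPN24-Cas13d and 34.2 ± 9.60 CPM in EPN24, a log2 fold change of 4.19. CDC20, an activator of the anaphase-promoting complex, averaged 536 ± 38.8 CPM and 35.2 ± 5.66 CPM, a log2 fold change of 3.92. Both were picked by mean level over all 4 libraries, and both lay among the higher genes. The 16 lower genes included CENPF (-2.83) and CDK1 (-5.74), named after their values were seen. CENPF had 10.1 and 5.54 CPM in EPN24-Cas13d and 62.0 and 50.2 CPM in EPN24. CDK1 had 0 and 2 counts in EPN24-Cas13d and 24 and 42 counts in EPN24.

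Of the MuvB core and FOXM1, 1 of 6 was higher and 4 were lower. FOXM1, the mitotic transcription factor recruited after MYBL2, averaged 349 ± 42.2 CPM in EPN24-Cas13d and 58.5 ± 17.1 CPM in EPN24, a log2 fold change of 2.58. RBBP4, a histone-binding subunit, had -0.42 (edgeR adjusted p = 0.0446) but 2.95 with ERCC scaling and 1.82 with the GC trend removed. The number of lower genes fell to 2 without EPN24-Cas13d replicate 2 or without EPN24 replicate 2, as the calls of RBBP4 and LIN52 were lost.

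Of the pocket proteins that restrain E2Fs, RBL2 (p130) was called higher and RBL1 (p107) and RB1 lower. RBL2 had 26.9 and 22.1 CPM in EPN24-Cas13d and 14.7 and 11.8 CPM in EPN24, a log2 fold change of 0.88, and its call was lost without EPN24-Cas13d replicate 1 (0.80, edgeR adjusted p = 0.140) or without EPN24 replicate 2 (0.66, adjusted p = 0.067), and with libraries scaled by total gene counts (0.31, adjusted p = 0.379). RBL1 had 6.97 and 6.04 CPM in EPN24-Cas13d and 28.6 and 20.8 CPM in EPN24, a log2 fold change of -1.92 that was 1.42 with ERCC scaling and 0.67 with the GC trend removed. Of the relatives of TFDP1 and MYBL2, TFDP2 was higher at 2.07, with 76.0 and 76.5 CPM in EPN24-Cas13d and 18.3 and 18.0 CPM in EPN24. MYB had 0 and 2 counts in EPN24-Cas13d, under the floor of 3, and 25 and 46 counts in EPN24, and was called lower.

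Of 8 G1 cyclins and their kinases, 6 were called higher and 1 lower, with a median of 1.76. The D-type cyclins CCND2 and CCND3, which start the release of E2Fs, had log2 fold changes of 3.77 and 3.96, and averaged 472 ± 4.89 and 265 ± 2.86 CPM in EPN24-Cas13d, against 34.4 ± 3.75 and 17.0 ± 1.37 CPM in EPN24. The calls of CDK6 and CCNE1 were lost without EPN24 replicate 1, which left 4 higher, as did background subtraction and the stricter filter. Of 7 inhibitors of these kinases, 2 were higher and 1 lower, while with ERCC scaling all 7 were higher, against 58.4% of all genes. CDKN1A, the p53-induced inhibitor p21, averaged 402 ± 3.68 CPM in EPN24-Cas13d and 25.5 ± 1.40 CPM in EPN24 (log2 fold change 3.98), and CDKN2A, the locus of p16, was not called at 0.34 (edgeR adjusted p = 0.0876).

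The CDK inhibitor calls of CDKN1B and CDKN2C were lost without EPN24-Cas13d replicate 1, and that of CDKN2C also without EPN24 replicate 1. Of 11 partners of E2F6 in its Polycomb complex, 4 were higher and 6 lower, with a median of -0.62, and with ERCC scaling 8 were higher. The histone methyltransferases EHMT1 and EHMT2 had log2 fold changes of 1.82 and 3.08. The lower partners included CBX3 (-2.86) and MGA (-0.62), named after their values were seen, which had 0.49 and 2.75 with ERCC scaling. Members and companion genes were counted in the same fit, so each list's share reads against the 32.6% higher and 48.2% lower over all genes. Those shares were 58.4% and 2.33% with ERCC scaling and 38.9% and 27.8% with the GC trend removed. CCNE1 and CCNE2 stand in 2 lists.

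**Figure D4:**
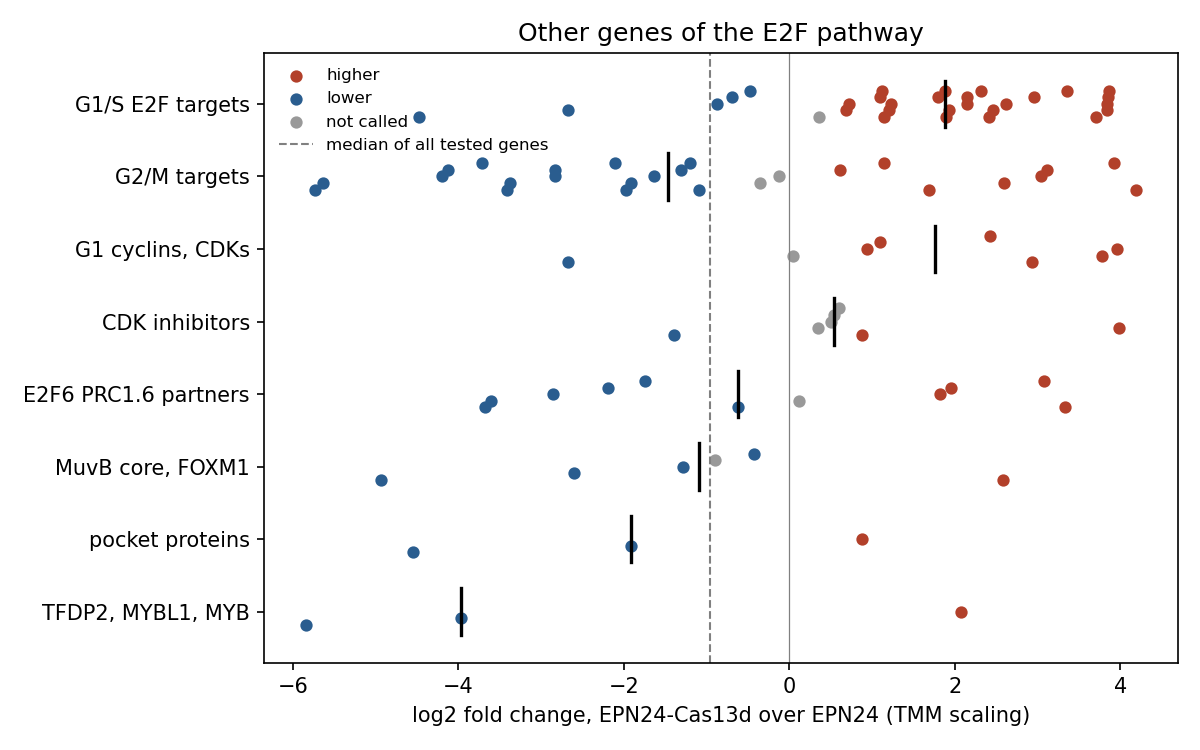
log2 fold change (EPN24-Cas13d over EPN24, TMM scaling) of each tested gene in the companion lists, with 1 point per gene. The G1/S genes lie mostly above 0 with a median of 1.88, and the G2/M genes spread on both sides with a median of -1.47.

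Over the 4 libraries, the protein-coding genes with the profile nearest to that of E2F1 were TRPC4AP, ZC3H3 and POLDIP3, at Euclidean distances of 0.195, 0.219 and 0.248 in log2(CPM + 1). Those nearest to E2F8 were TTC21B, KLF7 and CUL5, at 0.218, 0.228 and 0.261. With 4 libraries in 2 groups, such likeness mostly restates a gene's level in each group.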

How the data were processed

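The values per gene and library deposited by the authors are expected counts, that is, read counts that may carry fractions. Of these values 7.83% to 9.20% were not whole, and no scaling had been applied. Per the submitters' processing notes the tools included STAR 2.7.10a for alignment, featureCounts 2.0.1 for counting and DESeq2 1.36.0, and the builds were hg38 and GRCh38. No source used here gives the annotation release or the strand setting. The authors' deposited comparison table adds a normalized mean (signal), log2 fold changes with their errors, Wald scores and p-values from DESeq2. Exon length in bp, deposited beside the counts, gave levels per kilobase. The count table has 61640 rows: 5 fragments of a broken row were dropped, which left 61543 genes and 92 ERCC transcripts.

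After rounding, genes were kept by filterByExpr (20476), scaled by TMM without ERCC rows and fitted with the robust quasi-likelihood test of edgeR 4.0.16 under R 4.3.3, with Benjamini-Hochberg adjustment at 0.05. An SE was obtained as the size of the log2 fold change over the root of its F statistic. Printed CPM values include TMM scaling and their ± is an SD. Groups came from sample titles. Depth was 1830860 to 5097332 gene counts per library. PCR copies cannot be recognised, as no molecular identifiers are named, and floors cover counting error only. G or C content was read from each gene's longest GENCODE v29 transcript, and coding values from the principal transcript, in the build of the deposited data. The fit was first run on simulated counts with few genes changed. That check does not cover data such as these, where 80.9% of genes were called.

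The 10 members and the companion lists were chosen with earlier results of these data known. All members are named. So are the 2 tested genes of highest mean CPM in each list, the 3 protein-coding genes nearest in profile to the members of highest and lowest log2 fold change, genes whose exons overlap a member, and relatives named after one. Other companion genes were named after their values were seen. The values of 1 gene of the G1/S list are not reported here. Alternatives for scaling were DESeq2 size factors, total gene counts and ERCC totals. The filter was dropped or raised to 10 counts and 10 CPM. The others were a DESeq2 1.42.0 Wald fit, a replicate block, each library left out, halved counts, a length or GC trend removed, and background subtracted.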

Additional observations from a re-analysis of the deposited data

How the results depend on the processing

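E2F1, E2F2, E2F4, E2F7 and MYBL2 were called higher in all 15 alternatives, with log2 fold changes of 3.34 to 8.10, 3.60 to 7.82, 2.89 to 7.19, 0.88 to 5.10 and 3.14 to 7.61. The members called lower numbered 2 with total gene counts, the filter at 10 counts and 10 CPM, halved counts and background subtracted, where E2F3 joined E2F8 at -0.68, -0.97, -0.51 and -0.94, and 0 with ERCC totals, where E2F8 was 0.45. The value of E2F3 was above 0 with ERCC totals (3.25), no filter (0.25), the DESeq2 Wald test (0.062), without EPN24-Cas13d replicate 2 (0.074), and with the length (0.62) or GC trend removed (1.41). E2F5 was above 0 with ERCC totals (3.06), no filter (0.094), without EPN24-Cas13d replicate 2 (0.24), and with the length (0.42) or GC trend removed (2.66), and was not tested under the stricter filter. E2F6 was below 0 with total gene counts (-0.069), the stricter filter (-0.34) and without EPN24 replicate 2 (-0.036). Leaving out 1 library gave 6 to 7 members higher and 1 lower, with E2F3 between -0.27 and 0.074, E2F5 between -0.86 and 0.24 and E2F6 between -0.036 and 1.13, and with the lone sample of a group assumed to vary like the others. Over all tested genes, calls numbered 16556, with 9669 under the stricter filter, where fewer genes were tested, and 13291 to 14495 without 1 library. The cause of the other shifts was not tested.

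Same-numbered libraries shared no deviation (correlation -0.0033 over 20476 genes). With a replicate block, the pairing by number gave 6 members higher, 1 lower and 15041 genes called. The median log2 fold change of all genes was -1.53 with total gene counts and -0.96 with TMM. Depth limits E2F5, E2F6 and E2F8, which had fewer than 70 counts in each library.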
